A study of Mus musculus with 18 samples.

Results

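Toll-like receptors and their adaptor Myd88 were followed across bone marrow-derived macrophages (BMDMs) labelled WT or HDAC3 KO. The set was given by symbol and holds 10 genes of the 49315 in each count table: the surface receptors Tlr1, Tlr2, Tlr4 and Tlr6, the endosomal receptors Tlr3, Tlr7, Tlr8, Tlr9 and Tlr13, and Myd88. Each symbol was matched to 1 Ensembl identifier, and all 10 genes passed the filter on low counts in each of the 12 comparisons made. BMDMs of each label received no cells, or met for 45 min non-apoptotic K562 cells (NACs) or K562 cells made apoptotic by 15 min of UV-B (ACs), and were then washed and kept for 5 h before RNA was taken. K562 is a human leukemia cell line. There were 3 biological replicates in each of the 6 groups, 18 libraries in all. The mice were on a C57BL/6J background, and their age was not given. The study describes the control mice as carrying the floxed Hdac3 alleles (HDAC3f/f) that the KO mice carry as well, while the sample labels call them WT. In the KO mice a Cre recombinase expressed from the Lyz2 locus, active in myeloid cells, was to delete exon 7, so loss of the gene depended on how many cells had expressed Cre. The BMDMs of all groups had been differentiated in medium conditioned by L929 cells. Libraries of a group are numbered as in the labels.

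Toll-like receptors bind molecules that mark microbes or damaged cells. Tlr1, Tlr2, Tlr4 and Tlr6 sit at the cell surface and see lipoproteins or, for Tlr4, lipopolysaccharide, whereas Tlr3, Tlr7, Tlr8, Tlr9 and Tlr13 sit in endosomes and see nucleic acids. Most of them signal through Myd88, which recruits Irak kinases and Traf6 and ends in NF-kappa B and cytokine genes. Tlr3 uses the adaptor Ticam1 instead, and Tlr4 uses both. In macrophages that take up dying cells, the nucleic acid receptors meet the cargo inside the phagosome.

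The libraries held between 4704491 and 26421267 counts on genes, with a median of 16477929, and the smallest was untreated KO replicate 1. Hdac3, the targeted gene, did not separate the labels. It had 3.38, 44.4 and 32.0 CPM in the untreated WT libraries and 38.7, 11.4 and 74.6 CPM in the untreated KO libraries, where CPM is the count as a scaled share of its library's total, with TMM factors between libraries. With NACs it had 48.8, 44.0 and 11.6 CPM under the WT label and 4.66, 34.05 and 42.6 CPM under the KO label, and with ACs 7.13, 38.3 and 29.7 CPM against 39.8, 10.1 and 17.9 CPM. These counts cover the whole gene and do not show exon 7 alone, so each group below is named by its label only. Macrophage markers had a high sum in all libraries, 4844 to 18587 CPM over 8 genes, of which Itgam fell as low as 22.3 CPM. The 8 granulocyte markers summed to 158 to 841 CPM, so the cultures also held RNA of that list. Among 8 genes of K562 and erythroid cells, Hemgn was at 0 in all 18 libraries, and the sum over the list was 6.52 to 58.7 CPM. In such bulk samples, fewer cells of a type and less RNA per cell cannot be told apart.

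Per length of transcript, Tlr2 was the most abundant of the 10 genes. Its level was 104 ± 49.4 RPKM (CPM per kilobase of exon; mean ± SD over 18 libraries). Myd88 followed with 34.3 ± 15.5 RPKM and Tlr13, the receptor for bacterial ribosomal RNA, with 22.2 ± 10.4 RPKM. Tlr2 exceeded Myd88 in 16 of the 18 libraries, but Myd88 exceeded Tlr13 in only 11, so the order of that pair was not firm. Tlr7, a receptor for single-stranded RNA, lay below Tlr13 in all 18 libraries, at 8.43 ± 5.23 RPKM. Tlr9, the receptor for unmethylated CpG DNA, had 6.52 ± 5.47 RPKM and Tlr8, the neighbour of Tlr7 on the X chromosome, 4.85 ± 3.30 RPKM. Tlr7 was above Tlr9 in 12 libraries and Tlr9 above Tlr8 in 9, so these neighbours traded places between libraries. The order of group means also differed. Tlr7 and Tlr9 averaged 13.1 and 4.23 RPKM in untreated WT libraries, but 2.79 and 11.7 RPKM in untreated KO libraries. There Tlr9 spread over 1.52, 12.1 and 21.6 RPKM, and in replicate 1 Tlr7 was still above it, at 1.91 RPKM. Tlr4 had 3.11 ± 2.16 RPKM and Tlr1, which pairs with Tlr2, 2.91 ± 1.38 RPKM, and Tlr4 exceeded Tlr1 in 8 of 18 libraries. Tlr6, the other partner of Tlr2, was lower in all 18, with 1.31 ± 0.539 RPKM. Tlr3, the receptor for double-stranded RNA, was lowest in every library, with 0.411 ± 0.225 RPKM. Tlr8 had the widest range relative to its level, from 0.491 to 10.8 RPKM, and Tlr6 the narrowest, its highest library exceeding its lowest by a factor of 3.77. The lowest Tlr8 value rests on 7 counts, in untreated KO replicate 1.

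**Figure D1:**
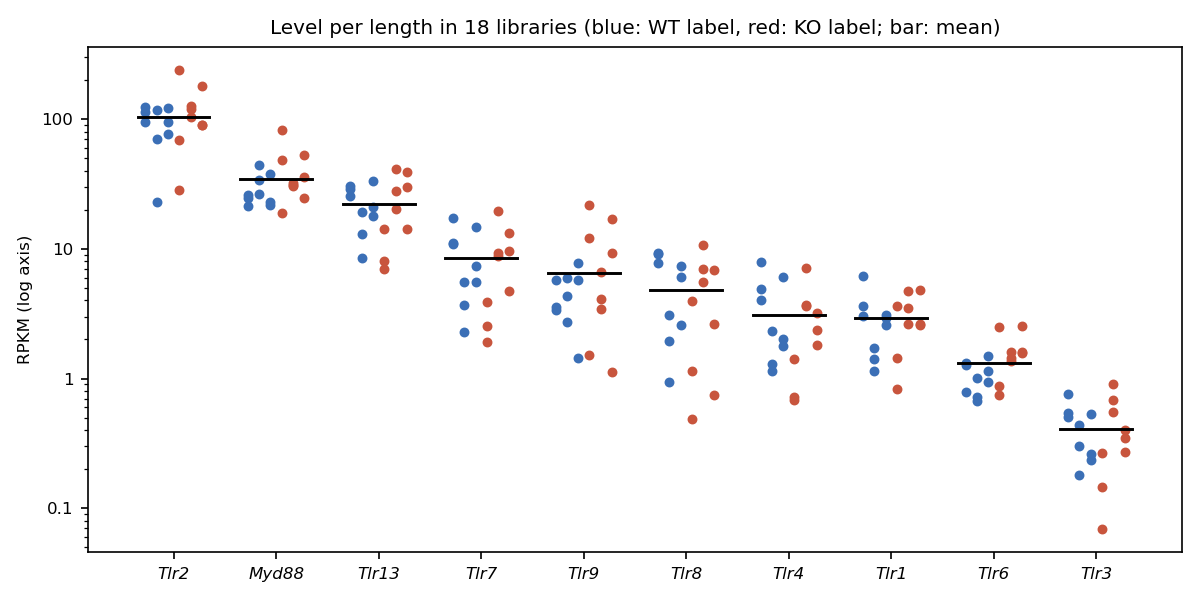
RPKM of the 10 genes (log axis) in 18 libraries, ordered by their mean (black bar), with WT-labelled libraries in blue and KO-labelled libraries in red. Tlr2 stands at 104 RPKM on average and Tlr3 at 0.411, and the points of neighbouring genes from Tlr7 to Tlr1 overlap.

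Tlr2, Tlr1 and Tlr6 make up the lipoprotein receptors. Tlr2 (ENSMUSG00000027995; GRCm38 chromosome 3, 83836272 to 83841767, reverse strand) had 341, 371 and 286 CPM in untreated WT libraries and 209, 85.3 and 720 CPM in untreated KO libraries. The KO libraries lay on both sides of the WT libraries, and replicate 3 was the highest of all 18. With NACs Tlr2 had 210, 355 and 69.1 CPM under the WT label and 379, 313 and 363 CPM under the KO label, and with ACs 366, 288 and 230 CPM against 538, 270 and 274 CPM. These ranges overlapped at both treatments. Tlr1 (ENSMUSG00000044827; chromosome 5, 64924679 to 64933563, reverse strand) had 10.1, 12.2 and 20.5 CPM in untreated WT libraries and 2.77, 4.85 and 12.1 CPM in untreated KO libraries. With NACs it had 4.71, 5.72 and 3.79 CPM under the WT label and 11.6, 8.86 and 15.8 CPM under the KO label, so the order of the labels was the other way round and the groups did not overlap. Tlr6, its neighbour on the same strand (ENSMUSG00000051498; chromosome 5, 64952031 to 64960097), ranged from 2.49 to 9.39 CPM over the 18 libraries. Its group means lay between 2.97 CPM (WT with NACs) and 7.10 CPM (KO with ACs).

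Tlr4, the lipopolysaccharide receptor (ENSMUSG00000039005; chromosome 4, 66827584 to 66930284, forward strand), had 43.6, 22.5 and 27.03 CPM in untreated WT libraries and 3.77, 7.92 and 4.03 CPM in untreated KO libraries. Each KO library was below each WT library. With NACs it had 6.39, 13.0 and 7.15 CPM under the WT label and 39.8, 20.3 and 20.0 CPM under the KO label. The groups were again apart, now with the KO libraries on top. With ACs it had 33.6, 9.92 and 11.2 CPM under the WT label and 13.2, 17.8 and 10.1 CPM under the KO label, and the groups overlapped.

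Tlr7 (ENSMUSG00000044583; chromosome X, 167304929 to 167330558, reverse strand) and Tlr8 (ENSMUSG00000040522; chromosome X, 167242696 to 167264329, reverse strand) are neighbours. Tlr7 had 70.3, 44.3 and 45.5 CPM in untreated WT libraries and 7.80, 16.0 and 10.3 CPM in untreated KO libraries. With NACs it had 9.30, 22.7 and 15.2 CPM under the WT label and 79.2, 35.7 and 38.2 CPM under the KO label. Its levels were thus placed as those of Tlr4. Tlr8 had 32.4, 28.02 and 33.2 CPM in untreated WT libraries, 1.76, 14.3 and 4.13 CPM in untreated KO libraries, 3.36, 11.1 and 6.97 CPM in WT libraries with NACs and 38.7, 20.0 and 25.2 CPM in KO libraries with NACs. With ACs both genes overlapped between labels: Tlr7 had 60.5, 22.7 and 29.9 CPM against 53.8, 39.0 and 19.4 CPM, and Tlr8 21.6, 9.21 and 26.5 CPM against 24.7, 2.69 and 9.39 CPM.

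Tlr13 (ENSMUSG00000033777; chromosome X, 106143204 to 106160493, forward strand) had 118, 105 and 125 CPM in untreated WT libraries and 28.4, 58.3 and 33.0 CPM in untreated KO libraries. With NACs it had 34.5, 78.7 and 53.1 CPM under the WT label and 169, 113 and 82.4 CPM under the KO label. The lowest KO library with NACs exceeded the highest WT library only narrowly. Tlr3 (ENSMUSG00000031639; chromosome 8, 45395665 to 45411080, reverse strand) was the scarcest, with 3 to 102 counts per library. It had 2.65, 3.93 and 2.80 CPM in untreated WT libraries and 0.755, 0.358 and 1.39 CPM in untreated KO libraries. It overlaps the antisense gene Gm45542, and the strand setting of the counting was not given in the sources used here, so reads of the pair may not have been told apart.

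Tlr9 (ENSMUSG00000045322; chromosome 9, 106222598 to 106226883, forward strand) and Myd88 (ENSMUSG00000032508; chromosome 9, 119335934 to 119341411, reverse strand) were placed differently. Tlr9 had 12.3, 11.8 and 19.9 CPM in untreated WT libraries and 5.28, 41.9 and 75.2 CPM in untreated KO libraries. With NACs it had 15.1, 9.46 and 20.8 CPM under the WT label and 14.2, 11.8 and 22.9 CPM under the KO label. The KO libraries spread widely where they were untreated or held with ACs (32.4, 3.91 and 58.6 CPM) but not with NACs. Myd88 had 63.1, 55.0 and 67.3 CPM in untreated WT libraries and 48.3, 125 and 213 CPM in untreated KO libraries. With NACs its 3 KO libraries were close together, at 83.4, 79.1 and 79.5 CPM, within the WT range of 68.3 to 114 CPM. Myd88 overlaps Acaa1a on the opposite strand and Slc22a14 on its own, and reads there may have been split or shared.

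**Figure D2:**
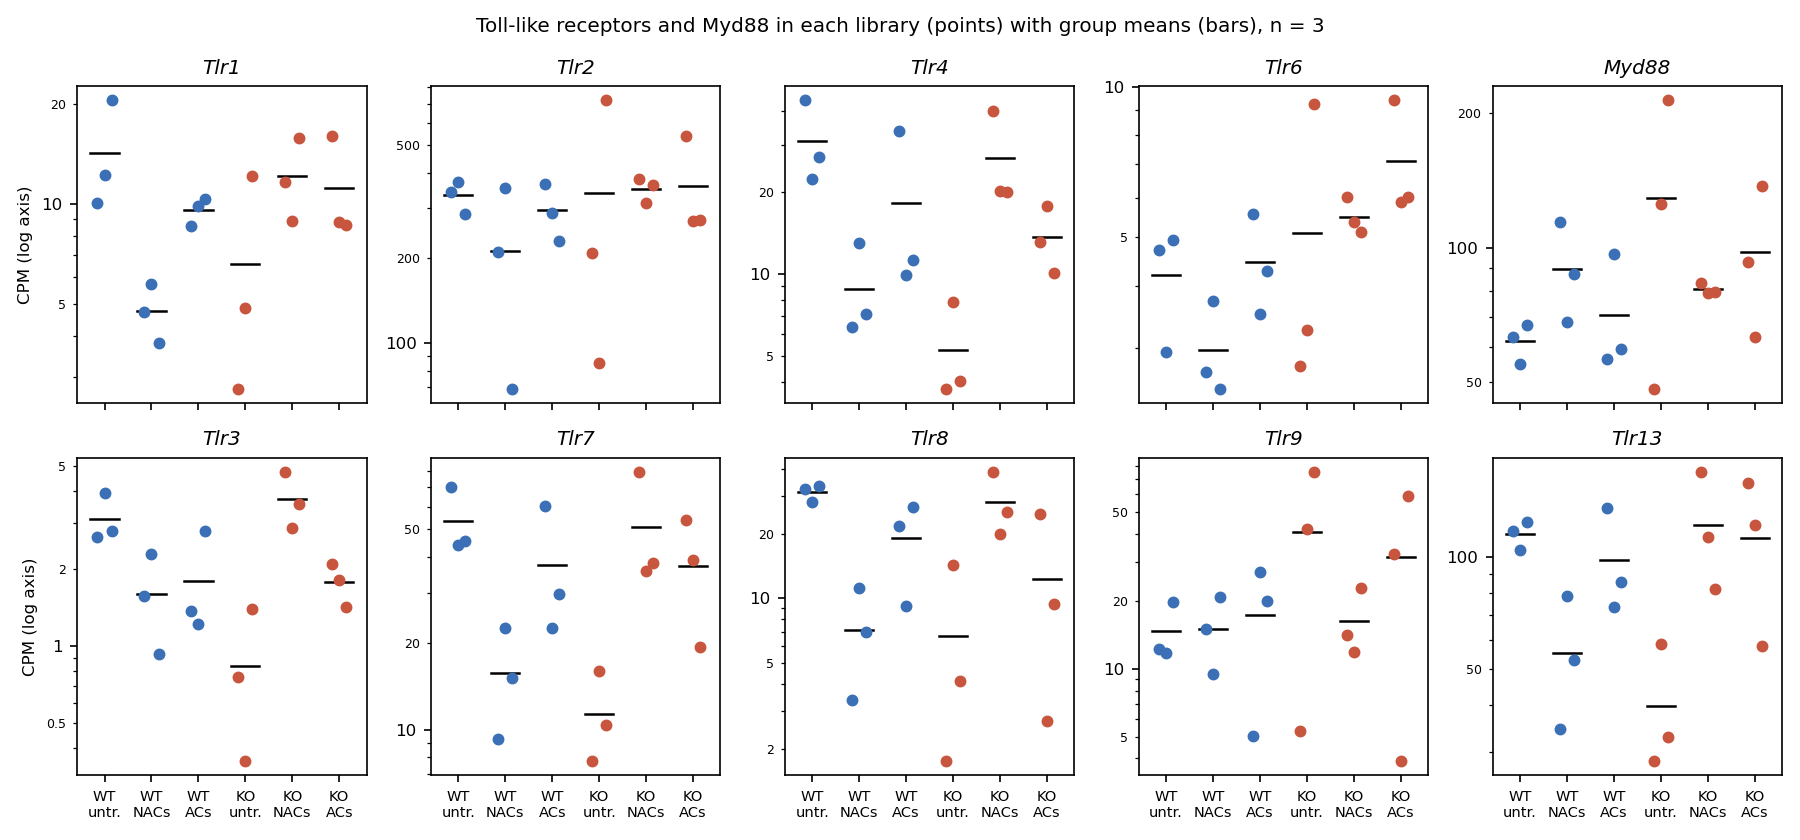
CPM (log axis) of each gene in the 3 libraries (points) of each group, with the group mean (bar), WT-labelled libraries in blue and KO-labelled libraries in red. Tlr4, Tlr7, Tlr8 and Tlr13 are low in untreated KO libraries and in WT libraries with NACs, while the highest points of Tlr9 and Myd88, 75.2 and 213 CPM, are in an untreated KO library.

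Windows before the start site of 4 genes are shown to set receptors that differed in base composition and in their pattern side by side: Tlr8 and Tlr1, which were low in WT libraries with NACs, and Tlr9 and Myd88, which were not. They are RefSeq sequences of GRCm38.p6, the 250 bases before the start, 5′ to 3′ on the strand of the gene. Of the 10 genes, 8 had such an entry, and Tlr4 and Tlr7 had none. Capitals mark a match to a motif, which is GAGGAAGT (bound by PU.1, the macrophage lineage factor) in Tlr1 and the interferon response element, a pair of GAAA separated by NN, in Myd88.
Tlr8 (chrX:167264330-167264579, reverse strand): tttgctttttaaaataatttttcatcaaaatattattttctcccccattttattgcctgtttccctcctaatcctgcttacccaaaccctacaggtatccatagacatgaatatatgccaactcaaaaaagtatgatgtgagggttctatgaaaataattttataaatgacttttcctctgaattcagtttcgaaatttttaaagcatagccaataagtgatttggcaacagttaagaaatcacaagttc
Tlr1 (chr5:64933559-64933808, reverse strand): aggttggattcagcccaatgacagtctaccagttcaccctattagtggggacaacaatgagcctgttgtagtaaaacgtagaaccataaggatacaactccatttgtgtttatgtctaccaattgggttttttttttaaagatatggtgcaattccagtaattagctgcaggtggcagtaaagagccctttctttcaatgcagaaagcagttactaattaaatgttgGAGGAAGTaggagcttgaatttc
Tlr9 (chr9:106222348-106222597, forward strand): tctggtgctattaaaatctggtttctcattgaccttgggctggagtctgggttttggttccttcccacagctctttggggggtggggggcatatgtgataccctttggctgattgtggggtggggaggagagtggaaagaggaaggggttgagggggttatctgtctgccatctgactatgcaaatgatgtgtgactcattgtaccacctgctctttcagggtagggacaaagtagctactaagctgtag
Myd88 (chr9:119340019-119340268, reverse strand): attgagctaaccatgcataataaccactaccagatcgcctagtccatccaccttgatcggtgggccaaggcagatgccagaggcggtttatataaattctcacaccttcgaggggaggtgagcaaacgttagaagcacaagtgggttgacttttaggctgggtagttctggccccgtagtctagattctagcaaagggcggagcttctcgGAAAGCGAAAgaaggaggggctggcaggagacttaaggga
The Tlr8 window held 31.2% G or C, the Tlr1 window shown 39.2%, that of Tlr9 50.4% and that of Myd88 51.2%, where the median over 32851 promoters was 52.4%. A second window of Tlr1, before another start, held 49.2% and no match. The window of Myd88 lies inside its annotated span, before a start site of its own. The PU.1 letters began 23 bases before the start of Tlr1, and 2.44% of all promoters held them on either strand. The interferon element began 40 bases before the start of Myd88, and 2.98% of all promoters held it. It also matched 2 times, overlapping, in a window of Tlr6. A loose kappa B motif (GGG and CC separated by NNNNN), which 45.8% of promoters held, matched 3 times in Tlr2, 2 times in Tlr3 and once in Tlr6. Matches of the same motif may overlap, and those on both strands were counted. The liver X receptor element (a pair of AGGTCA separated by NNNN) matched in none of the 10 windows of these genes and in 5 of all 32851. No letters of these 4 motifs were in the windows of Tlr8, Tlr9 and Tlr13.

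The first question was whether the label mattered in untreated macrophages. Tlr4, Tlr7, Tlr8 and Tlr13 were lower in the libraries labelled KO, by factors of 6.11, 4.90, 4.57 and 3.02. Of the genes tested, 11.6% were called in this comparison and 8.56% were called lower (368 higher and 1036 lower, against 749 and 888 with DESeq2 size factors and 54 and 2351 with library totals). These 4 of 10 members were called lower, none was called higher, and the median log2 fold change was -1.39 over the members and 0.06 over all genes. For Tlr4 the fitted log2 value was -2.61 (SE 0.50, adjusted p = 0.0192, edgeR quasi-likelihood test with Benjamini-Hochberg adjustment). Tlr7 had -2.29 (SE 0.46, adjusted p = 0.0218, same test), Tlr8 -2.19 (SE 0.63, adjusted p = 0.0434) and Tlr13 -1.60 (SE 0.44, adjusted p = 0.0381). Tlr3 was at -2.02 with groups that did not overlap, but missed the threshold (adjusted p = 0.0582), as did Tlr1 at -1.19 (adjusted p = 0.118). Tlr9 and Myd88 had fitted values on the other side, 1.39 and 0.96, with adjusted p of 0.141 and 0.167. With each library left out in turn, Tlr4 stayed between -3.11 and -2.35 and Tlr7 between -2.68 and -2.11, while the calls came and went with those of all genes. Members called numbered 0 without any single WT library or without KO replicate 3, where 0 to 78 of all genes were called, and 7 without the shallow KO replicate 1, where 5887 genes were called and Tlr9 (log2 fold change 1.85, adjusted p = 6.04e-05) and Myd88 (1.29, adjusted p = 0.00314) were called higher and Tlr3 was called lower. The summed markers of B cells were 6.22 to 15.1 CPM in the KO and 2.52 to 5.16 CPM in the WT libraries, over 6 genes of which Pax5 was at 0.332 CPM or less. The 5 markers of plasmacytoid dendritic cells summed to 784 to 1164 against 245 to 584 CPM, most of it from Bst2, which macrophages express as well, while Siglech was at 0.755 CPM or less. The 6 markers of dendritic cells summed to 1.04 to 1.33 against 0.265 to 0.931 CPM. Their part in the result was not tested. The median over all genes was 0.19 with DESeq2 size factors and -0.42 with library totals, and the 4 called members stayed called and lower with both. Under an offset for GC content and transcript length, described further on, none of the 4 was called, and neither was any other gene.

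With NACs the label difference lay in the opposite direction. Tlr8, Tlr7 and Tlr4 were higher in the KO-labelled libraries, by factors of 3.96, 3.31 and 3.09. This comparison called 0.864% of genes, 0.537% as higher, and 3 of the 10 members, all as higher. Over all genes 64 were higher and 39 lower, against 12 and 4 with library totals. On the log2 scale Tlr8 was at 1.99 (SE 0.41, adjusted p = 0.0218, same test), Tlr7 at 1.73 (SE 0.39, adjusted p = 0.0433) and Tlr4 at 1.63 (SE 0.39, adjusted p = 0.0443). Tlr1, Tlr13, Tlr3 and Tlr6 did not overlap between labels either, with log2 fold changes of 1.39, 1.16, 1.27 and 0.91, but their adjusted p were 0.0706, 0.0965, 0.156 and 0.198. Of the 10 fitted values, 9 were above 0, the exception being Myd88, and their median was 1.21 against 0.00 over all genes. No member was called without WT replicate 1 or 3, only Tlr8 without KO replicate 1 or 2, and 8 members without WT replicate 2, where 3121 genes were called against 0 to 169 without each of the others. No member was called with library totals in place of TMM factors (16 of 11923 genes called) or with all 18 libraries in 1 fit (0 of 13662 genes). The summed B cell markers were 5.27 to 19.5 CPM under the WT label and 1.82 to 5.28 CPM under the KO label here, and their part in the result was not tested.

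With ACs no member was called by label. In this comparison 3.75% of genes were called, and 0 of the 10 members were called by edgeR or by the Wald test of DESeq2, with 0 at an unadjusted p under 0.05. The genes called, 461 in all, numbered 1195 of 12282 under the offset for GC content and length and 0 to 1693 with 1 library left out. Fitted log2 fold changes ran from -0.70 (SE 0.64, adjusted p = 0.524) for Tlr8 to 0.76 (SE 0.85, adjusted p = 0.616) for Tlr9. The median over the members was 0.16, and Tlr4, Tlr7, Tlr8 and Tlr13 overlapped between labels. Tlr6 did not overlap, with 3.52 to 5.56 CPM under the WT label and 5.89 to 9.39 CPM under the KO label, but its log2 fold change of 0.63 did not pass (SE 0.47, adjusted p = 0.418).

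**Figure D3:**
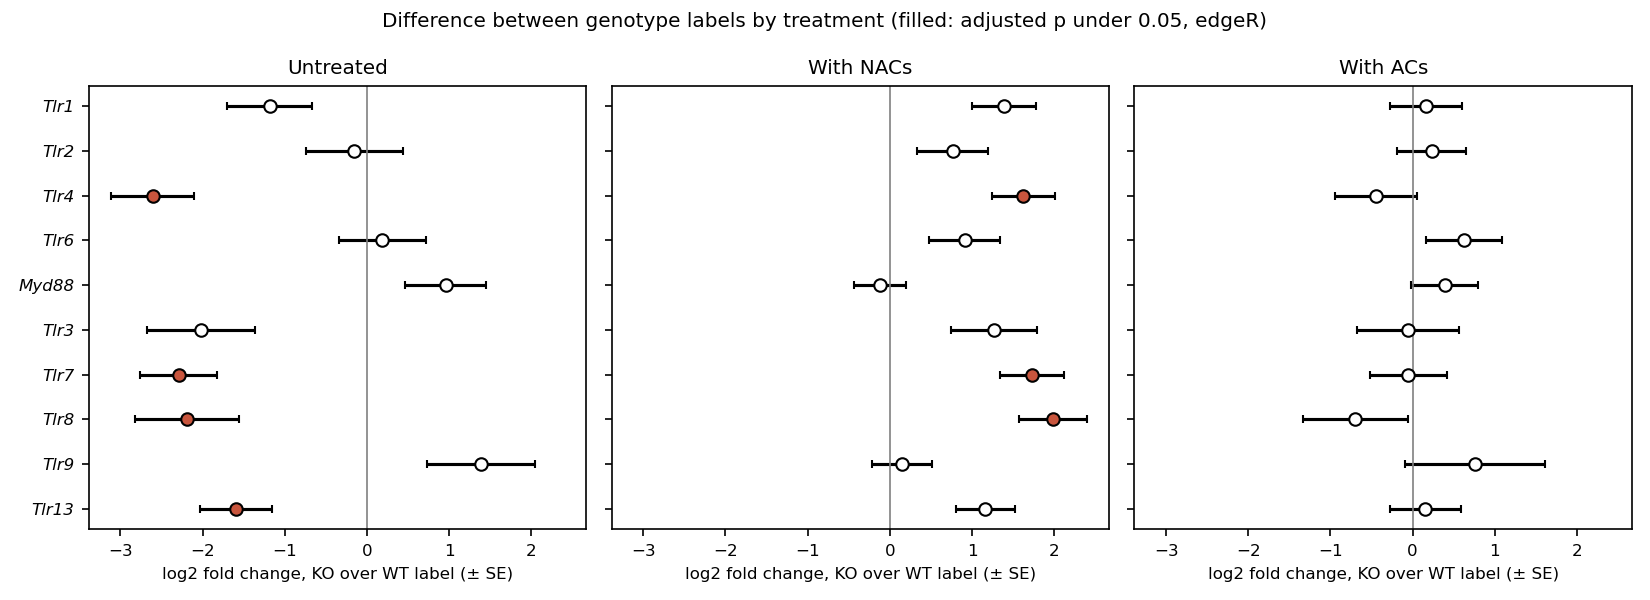
Log2 fold change of each gene, KO over WT label (point, with SE), in untreated macrophages, with NACs and with ACs, filled where the adjusted p was under 0.05. Tlr4, Tlr7 and Tlr8 are filled on opposite sides of 0 untreated (-2.61, -2.29, -2.19) and with NACs (1.63, 1.73, 1.99), and no gene is filled with ACs.

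The second question was what the cocultured cells did within each label. In WT-labelled macrophages, Tlr8, Tlr4, Tlr7, Tlr1 and Tlr13 were lower with NACs than without cells, by factors of 4.49, 3.65, 3.54, 3.10 and 2.17. Of the genes tested, 8.52% were called and 4.33% were called lower, against 5 of the 10 members, all lower. Over all genes 499 were higher and 516 lower, against 699 and 394 with DESeq2 size factors, with which Tlr1, Tlr4, Tlr7 and Tlr8 were called lower. For Tlr8 the fitted log2 value was -2.17 (SE 0.40, adjusted p = 0.00120, edgeR), Tlr4 -1.87 (SE 0.40, adjusted p = 0.00775), Tlr7 -1.82 (SE 0.39, adjusted p = 0.00775), Tlr1 -1.63 (SE 0.42, adjusted p = 0.0218) and Tlr13 -1.12 (SE 0.38, adjusted p = 0.0491). Tlr8 alone stayed called with each library left out in turn, with a log2 fold change from -2.59 to -1.87. It was the sole member called without untreated replicate 1 or without NACs replicate 1, where 27 and 21 genes were called. There were 3 without untreated replicate 2 or 3 (32 and 1342 genes), 2 without NACs replicate 3 (46 genes) and 6 without NACs replicate 2 (4232 genes). With library totals in place of TMM factors, or with all 18 libraries in 1 fit, no gene at all was called. Markers of B cells summed to 5.27 to 19.5 CPM with NACs and 2.52 to 5.16 CPM untreated, and those of plasmacytoid dendritic cells to 640 to 1233 against 245 to 584 CPM. Their part in the result was not tested.

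In KO-labelled macrophages the called members lay on the other side with NACs. Tlr4, Tlr7 and Tlr13 were higher than in untreated macrophages, by factors of 5.72, 5.09 and 3.44. Of the genes tested, 6.54% were called and 6.2% were called higher, against 3 of the 10 members. The log2 fold changes were 2.52 (SE 0.48, adjusted p = 0.0353, edgeR) for Tlr4, 2.35 (SE 0.47, adjusted p = 0.0353) for Tlr7 and 1.78 (SE 0.42, adjusted p = 0.0418) for Tlr13. Tlr3 and Tlr8 had values of similar size, 2.33 and 2.20, which did not pass (adjusted p = 0.0507 and 0.0661). No member was called without untreated replicate 2 or 3 or without any single library with NACs, and 7 were called without untreated replicate 1. Over all genes these fits called 0 and 4441, while Tlr4 stayed between 2.06 and 2.97 and Tlr7 between 1.84 and 2.68. With the size factors of DESeq2 no gene of 12143 was called, and with its Wald test 5 members and 2063 of 23435 genes were. A replicate block also left no gene called, though the replicate numbers were not taken to pair the samples. With B cell markers at 1.82 to 5.28 CPM with NACs and 6.22 to 15.1 CPM untreated, plasmacytoid dendritic cell markers at 273 to 705 against 784 to 1164 CPM and fibroblast markers at 7.22 to 42.7 against 67.6 to 102 CPM, these lists did not overlap either, and their part in the result was not tested.

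The difference between these 2 effects was tested as an interaction. It was positive for Tlr4, Tlr8, Tlr7, Tlr3, Tlr13 and Tlr1, which means that the change with NACs was more upward under the KO label. The interaction was called for 34.8% of genes and was positive for 22.1%, and for 6 of the 10 members, all positive. Over all genes, 2869 were positive and 1661 negative, against 2284 and 2726 with DESeq2 size factors and 3601 and 400 with library totals, and the 6 members were called positive with both. Its log2 value was 4.50 (SE 0.65, adjusted p = 0.000636, edgeR) for Tlr4, 4.48 (SE 0.81, adjusted p = 0.00123) for Tlr8 and 4.29 (SE 0.63, adjusted p = 0.000636) for Tlr7. Tlr3 had 3.50 (SE 0.82, adjusted p = 0.00406), Tlr13 3.02 (SE 0.56, adjusted p = 0.00114) and Tlr1 2.79 (SE 0.67, adjusted p = 0.00433). The remaining members were not called: Tlr2 had 1.10, Tlr6 0.92, Myd88 -0.85 and Tlr9 -1.003, with adjusted p of 0.242 to 0.358. With each of the 12 libraries left out in turn, 6 to 8 members and 3043 to 6297 genes were called, the most of both without untreated KO replicate 1.

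No member was called for ACs within a label. Against NACs, 0 of 10 members were called in WT-labelled macrophages (0% of genes called, 4 members at an unadjusted p under 0.05, edgeR; 0 members by DESeq2) and 0 in KO-labelled macrophages (7.38% of genes, 2 members unadjusted; 0 by DESeq2). Without KO replicate 2 with ACs, Tlr4 and Tlr9 were called in the latter comparison, along with 3013 of 12623 genes. Without KO replicate 1 with ACs, no member and 0 of 12689 genes were called, and 308 to 599 genes without each of the others, against 904. Against untreated macrophages, 0 were called under the WT label (0% of genes, 1 member unadjusted) and 0 under the KO label (0% of genes, 3 members unadjusted), and DESeq2 called 0 in each. The interaction of label with ACs against NACs was called for 0.0765% of genes and no member (4 members unadjusted), but for Tlr8 by DESeq2 (741 of 27887 genes called) and for Tlr4 without WT replicate 2 with NACs (782 of 13884 genes). The interaction of label with ACs against no treatment was called for 0% of genes and no member (4 members unadjusted), but for Tlr4 and Tlr7 by DESeq2 (1249 of 27682 genes called) and for Tlr7 and Tlr13 without KO replicate 3 with ACs (1100 of 13566 genes). The comparisons with NACs and with untreated macrophages share those libraries and are not independent of each other.

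The members differ in base composition, and so did the libraries. The longest transcript of Tlr4 holds 39.4% G or C, those of Tlr3, Tlr8 and Tlr7 40.0%, 40.1% and 41.0%, and that of Tlr13 43.6%, which places these 5 in the fifth of genes poorest in GC (up to 43.9%). Tlr1 has 45.1%, Tlr6 45.6%, Tlr2 49.3%, Myd88 53.5% and Tlr9 56.2%. Over all genes tested, the median log2 fold change of KO over WT in untreated macrophages was -1.22 in the fifth poorest in GC and 0.95 in the fifth richest in GC. With NACs these medians were 0.51 and -0.60. For NACs over untreated they were -0.74 and 0.82 under the WT label and 1.16 and -0.64 under the KO label, and for the interaction 1.96 and -1.34. Tlr4, Tlr7 and Tlr8 lay on the side of 0 of their GC class and farther out than its median in each of these 5 comparisons, and so did Tlr1, Tlr3 and Tlr13. These comparisons share libraries, and many genes of a class lie beyond its median. The share of genes lying as far out as these members was not counted.

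**Figure D4:**
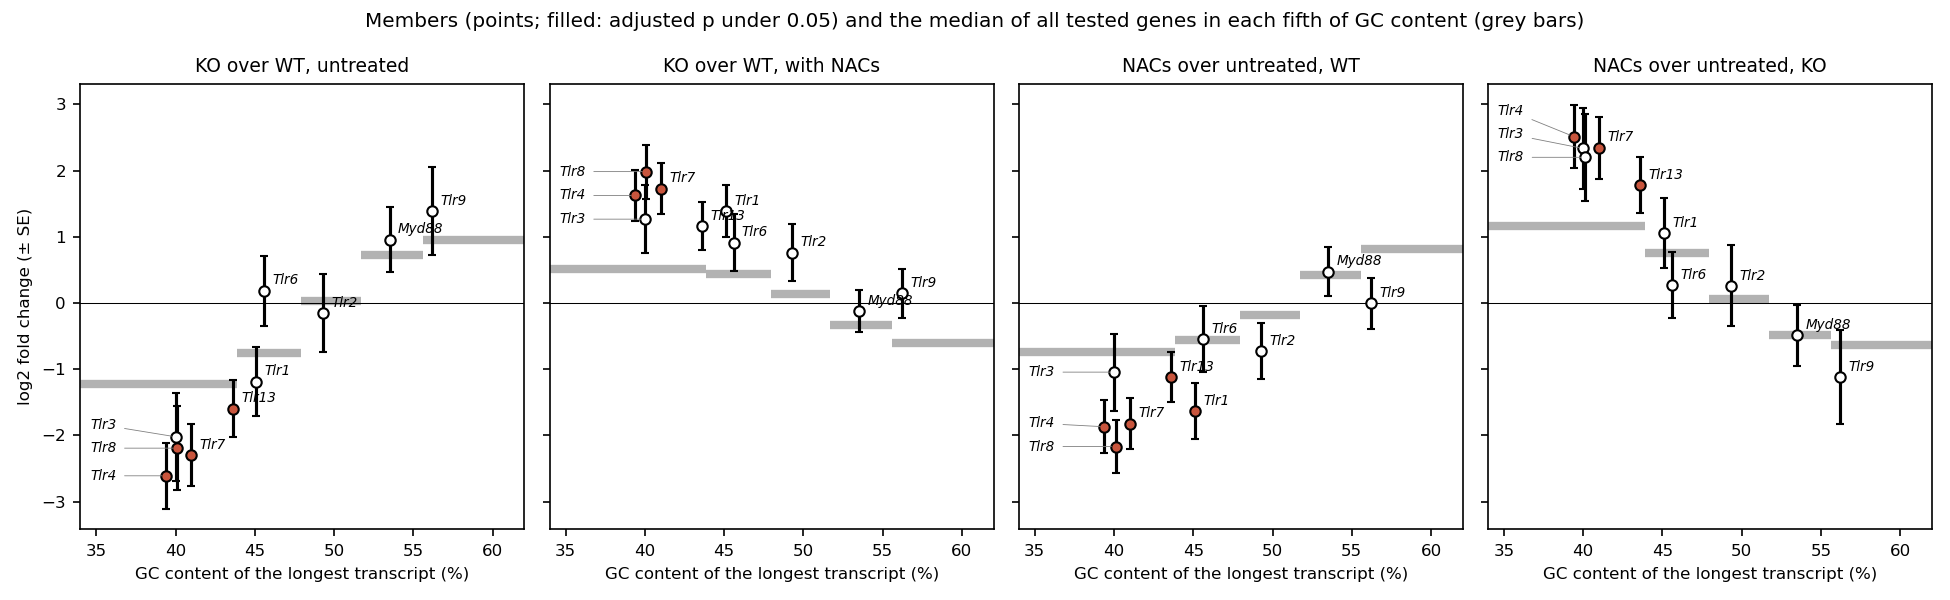
Log2 fold change (with SE) of the 10 genes against the GC content of their longest transcript, in 4 comparisons, filled where the adjusted p was under 0.05. Grey bars are medians of all tested genes in 5 classes of GC content, running from -1.22 to 0.95 in the untreated comparison of labels, and Tlr4, Tlr7 and Tlr8 lie beyond the bar of their class in all 4 panels, whereas Tlr9 with NACs by label (0.15) and Tlr6 in untreated macrophages (0.19) lie off theirs. Each bar is a median, so other genes of a class lie beyond it as well.

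An offset for GC content and transcript length was therefore fitted in each library. It takes out any difference that follows these properties, whatever gave rise to it. With it, the calls of nearly all genes were lost in these comparisons of 2 groups: 0 of 12080 genes were called in untreated macrophages by label, 1 of 11905 with NACs by label, and 0 for NACs over untreated under either label. Members lost theirs as well. In untreated macrophages by label, Tlr4 was at -1.32 on the log2 scale (adjusted p = 0.159, edgeR), Tlr7 -1.02 (adjusted p = 0.219), Tlr8 -0.93 (adjusted p = 0.431) and Tlr13 -0.58 (adjusted p = 0.396). With NACs by label, Tlr8 had 1.57 (adjusted p = 0.108), Tlr7 1.24 (adjusted p = 0.131) and Tlr4 1.13 (adjusted p = 0.142), and none was called. None was called for NACs over untreated under the WT label, where Tlr8 had -1.54 and Tlr4 -1.16, or under the KO label, where Tlr4 had 1.26 and Tlr7 1.08. The interaction of label with NACs kept 3 members, Tlr8 at 2.61 (adjusted p = 0.0352), Tlr4 at 2.56 (adjusted p = 0.0128) and Tlr7 at 2.37 (adjusted p = 0.0135), where 5.91% of all genes were called positive. Tlr13 had 1.37 (adjusted p = 0.0552) and Tlr3 and Tlr1 had 1.37 and 1.33, with adjusted p of 0.249 and 0.170.

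The same balance was seen library by library. As a measure of it, the median log2 deviation of GC-rich genes was subtracted from that of GC-poor genes in each library. It was 1.29, 1.33 and 0.58 in untreated WT libraries, -0.45, -1.11 and -1.59 in untreated KO libraries, -0.93, 0.33 and -0.75 in WT libraries with NACs, and 0.91, 0.44 and 0.59 in KO libraries with NACs. With ACs it ranged from -0.85 to 0.80 under the WT label and from -1.14 to 0.62 under the KO label. The untreated groups, and the groups with NACs, did not overlap in it. Over the 18 libraries, which share their depth and composition with the measure, Pearson's r with the log2 CPM was 0.87 for Tlr4, 0.82 for Tlr7, 0.76 for Tlr13, 0.71 for Tlr3 and 0.59 for Tlr8. It was 0.40 for Tlr1, 0.30 for Tlr2 and 0.05 for Tlr6, and below 0 for Tlr9 (-0.64) and Myd88 (-0.76). These values describe the libraries, and what set their composition was not tested.

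**Figure D5:**
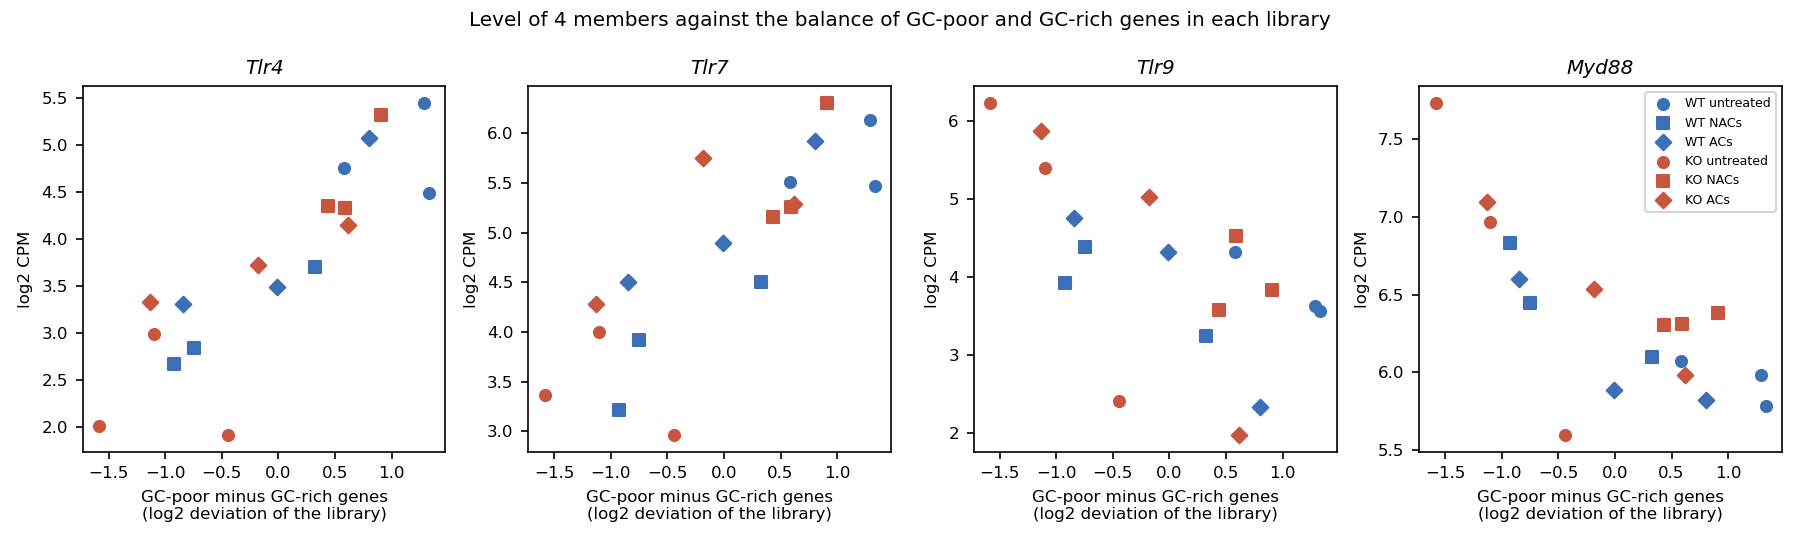
Log2 CPM of 4 members against the balance of GC-poor over GC-rich genes in each of 18 libraries, with colours for labels and shapes for treatments. Tlr4 and Tlr7 climb with the balance (r of 0.87 and 0.82), and Tlr9 and Myd88 descend (r of -0.64 and -0.76).

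Members also varied with each other. Across the 18 libraries, Tlr7 and Tlr13 had a Pearson's r of 0.97 on log2 CPM, Tlr4 and Tlr7 0.95 and Tlr4 and Tlr13 0.89. Tlr9 and Myd88 had 0.83, while Tlr4 and Myd88 had -0.47. The gene with the most similar pattern among 13652 was Tmem168 for Tlr4 (r = 0.98, GC content 40.4%), Lsm14a for Tlr7 (0.96, 46.0%), Rai14 for Tlr13 (0.97, 47.2%), Pstpip2 for Tlr8 (0.92, 48.7%) and Mfsd14a for Tlr3 (0.87, 42.0%). For Tlr9 it was Ankrd52 (0.96, 55.7%), followed by the macrophage genes Cmklr1 and Siglec1 (0.95 and 0.94). For Myd88 it was Pmm2 (0.97, 47.9%), for Tlr2 Slc9a9 (0.91, 47.6%), for Tlr1 Nipsnap2 (0.90, 48.0%) and for Tlr6 Nt5c2 (0.93, 46.6%). Second to Rai14, Tlr13 was most like Mrc1, the mannose receptor (0.96).

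Around the members, 76 further genes of the pathway were examined. The receptors Tlr5, Tlr11 and Tlr12 had too few counts to be tested in any comparison. In untreated macrophages, 5 of 64 tested genes were lower under the KO label and none higher, a share of 7.81% beside 11.6% of all genes called and 8.56% called lower. They were the kinases Tbk1 (log2 fold change -2.32, adjusted p = 0.0193, edgeR), Map3k8 (-1.67, adjusted p = 0.0426) and Map3k7 (-1.49, adjusted p = 0.0434), the accessory protein Ly86 (-1.46, adjusted p = 0.0434) and the anti-inflammatory cytokine Il10 (-2.52, adjusted p = 0.0438). Tbk1, which phosphorylates interferon regulatory factors, had 10.5 ± 3.77 CPM (SD, n = 3) under the KO label and 50.02 ± 7.46 CPM under the WT label. With NACs 2 of 62 were higher under the KO label (0.537% of all genes), the adaptor Pik3ap1 (1.75, adjusted p = 0.0264, edgeR) and Map3k8 (1.69, adjusted p = 0.0443), and with ACs 0 of 63 were called (3.75% of all genes).

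Within the WT label, NACs went with 12 of 63 pathway genes called, 4 higher and 8 lower, beside 8.52% of all genes called and 4.33% called lower. The lower ones included Map3k8 (-1.73, adjusted p = 0.0211, edgeR), Tbk1 (-1.46, adjusted p = 0.0218), Pik3ap1 (-1.38, adjusted p = 0.0258), the Tlr4 homologue Cd180 (-1.29, adjusted p = 0.0289) and the inhibitor Tnfaip3 (-1.37, adjusted p = 0.0322). The 4 higher ones, named here after their values were seen, were the adaptor Ticam1 (1.39), the transcription factors Irf7 (1.30) and Rela (1.27), and the chaperone Cnpy3 (1.11). Within the KO label, where 6.2% of all genes were called higher, 3 of 63 were higher, Tbk1 (2.23, adjusted p = 0.0353), Map3k7 (1.70, adjusted p = 0.0400) and Map3k8 (1.75, adjusted p = 0.0454), and Lrrc32 was lower (-2.37, adjusted p = 0.0435). ACs against NACs under the KO label gave 3 of 64 called, a share of 4.69% beside 7.38% of all genes. They were the chemokine Cxcl2 (-2.61, adjusted p = 0.00229) and Map3k8 (-1.56, adjusted p = 0.0262) lower and Lrrc32 (2.32, adjusted p = 0.0147) higher. Cxcl2, an NF-kappa B target, had 1.35 ± 0.596 CPM with ACs and 8.53 ± 2.55 CPM with NACs. Without KO replicate 1 with ACs, 0 of 12689 genes were called, so these 3 calls were lost. Fibroblast markers (6 genes) summed to 75.7 to 222 CPM with ACs and 7.22 to 42.7 CPM with NACs under the KO label. Their part in the result was not tested. The interaction of label with NACs was called for 32 of 65 pathway genes, 19 positive and 13 negative, beside 34.8% of all genes called and 22.1% positive. Of the 9 transcription factors 7 were called in it, 5 of them negative, and of 17 kinases and ubiquitin ligases 8 were called, 7 of them positive. The median log2 value was -1.26 over these transcription factors and 1.00 over these kinases and ligases. Over all genes it was 1.96 in the fifth poorest in GC and -1.34 in the richest. The part of base composition in this split was not tested. All genes split into 2869 positive and 1661 negative, against 2284 and 2726 with DESeq2 size factors, with which the lists were not counted. The interaction was not counted over the lists under the offset, which took the calls over all genes from 4530 to 1545. For the label in untreated macrophages and for NACs over untreated under either label, no gene was called under the offset, the pathway genes named here included. For the label with NACs, no gene was called higher under it, which includes Pik3ap1 and Map3k8.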

How the data were processed

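Paired-end NEBNext Ultra II libraries were sequenced by the study. Per the submitters' processing notes, the authors used Trimmomatic 0.36, STAR 2.5.2b and featureCounts of Subread 1.5.2 on GRCm38, and deposited whole read counts per gene and library, without normalization. The strand setting and annotation release were not given in the sources used here. From the counts, every comparison had its own fit of the libraries involved, made with edgeR 4.0.16 under R 4.3.3 (filterByExpr, minimum count 10 and minimum total 15; TMM; glmQLFit with robust dispersions; glmQLFTest), with Benjamini-Hochberg adjustment over all genes tested and a threshold of 0.05. CPM and RPKM used TMM factors of 18 libraries and the files' exon lengths. GC content came from GENCODE M21 transcripts, and the offset from mgcv 1.9.3 smooths of GC content and length. The figures were drawn from the same values with matplotlib 3.10.9.

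Symbols were matched through GENCODE M21, whose start and end equal those of all 10 genes. Motifs were searched in the 250 bases before each start. Named pathway genes are those called in a comparison whose groups do not overlap, at most 5 each, and similar genes are the 3 with the highest Pearson's r of log2 CPM (prior count 2). Some genes of the marker lists and of the similar genes are not reported here. The members and lists were chosen with earlier results of these data known. Alternatives were DESeq2 1.42.0 (size factors and Wald test, as the study used), library totals, other filters, all 18 libraries in 1 fit, a replicate block, the offset, and each library left out. No replicates of a group were so alike as to be counted as 1 library (chi-squared per degree of freedom 35.8 to 308). On simulated data built from the libraries with ACs (12304 genes), the edgeR test recovered 60% of genes changed by a log2 of 2 and 88% of those changed by 3.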

Additional observations from a re-analysis of the deposited data

Results flagged for a closer look

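The effect of NACs differed between the labels for 6 of the 10 genes by the interaction test of edgeR with Benjamini-Hochberg adjustment. On the log2 scale the difference was 4.50 for Tlr4, 4.48 for Tlr8, 4.29 for Tlr7, 3.50 for Tlr3, 3.02 for Tlr13 and 2.79 for Tlr1, where 34.8% of all genes were called. Under the offset (GC content and length), Tlr4, Tlr7 and Tlr8 were called, at 2.56, 2.37 and 2.61, where 5.91% of all genes were called positive. Groups of 3 libraries were not screened for single outlying libraries.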

How the results depend on the processing

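Members called changed by more than 1.5 times as follows. Under the offset (GC content and length), 0 were called in the label comparisons untreated and with NACs and for NACs over untreated under either label, and 3 in the interaction of label with NACs against no treatment. With the offset and a replicate block together the counts were 0, 0, 1 (Tlr8, WT label), 0 (KO label) and 3. Over all genes these fits called 0, 5, 36, 0 and 1119. With NACs by label, library totals and all 18 libraries in 1 fit gave 0 and no filter gave 5 (16, 0 and 575 of all genes, against 103). For NACs over untreated under the WT label, library totals and the 18-library fit gave 0. Under the KO label DESeq2 size factors gave 0, and library totals, the Wald test and no filter gave 5 (0, 2112, 2063 and 1479 of all genes, against 794). For the interaction of label with ACs against NACs the Wald test and no filter gave 1 (741 and 537 of all genes, against 10). For that with ACs against no treatment the Wald test gave 2 (1249 of all genes, against 0). With each library left out, members called ranged from 0 to 7 untreated, 0 to 8 with NACs, 0 to 2 for ACs against NACs under the KO label, 1 to 6 and 0 to 7 for NACs over untreated (WT, KO), and 0 to 1, 0 to 2 and 6 to 8 for the interactions with ACs against NACs, ACs against no treatment and NACs against no treatment.

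With the replicate block alone, members called fell from 3 to 0 for NACs over untreated under the KO label (all genes from 794 to 0), rose from 0 to 1 (Tlr8) for ACs against NACs under the KO label (all genes from 904 to 1400), and stayed at the same number in the other 10 comparisons. The numbers were not taken to pair the samples: same-numbered libraries correlated in their deviations from the group means from -0.33 to 0.46, and over the 9 comparisons of 2 groups a library correlated best with its own number in 8 of 27 cases. Each comparison between labels had 0 or 1 of 3 such cases, and each within a label 1 or 2 of 3. Whether a number stood for 1 mouse across treatments was not stated in the sources used here.

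Over all 12 comparisons, 22 of the 120 member values had the other sign under the offset, none of them called with or without it. Among the 37 values refitted under every setting, these were Tlr8 by label with ACs (0.29), and Tlr6 (-0.44) and Tlr9 (0.11) in the interaction of label with NACs; with the block added the interaction values were -0.38 and 0.27. The cause was not tested beyond the offset's own construction. For the same 37 values, settings other than leaving out a library left 250 fits on the same side of the threshold, 59 weaker, 13 stronger and 5 reversed, and 52 of 60 group means moved by less than 1 SD. The number of all genes called also moved, from 1404 to 0 with the offset and 3299 with the Wald test untreated, and from 0 to 5887 with a library left out. Depth limits Tlr3, with 3 counts in its lowest library, untreated KO replicate 1. In that library Tlr8 had 7 counts, Tlr1 and Tlr6 11 each and Tlr4 15. With at least 10 counts required in every library compared, 3 members were called untreated by label, against 4.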
